A study of Mus musculus with 48 samples.

Results

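The effect of angiotensin II in the hippocampus of mice that also received hydralazine was examined by RNA sequencing in 12 libraries, 6 from mice given both drugs and 6 from mice given vehicle plus hydralazine, out of 48 libraries of the study in all. All mice were male wild-type C57Bl6. They were infused through an osmotic minipump for 2 weeks with angiotensin II at 0.7 mg per kg per day or with saline, and every mouse of both groups had hydralazine at 50 mg per kg in the drinking water. The other 36 libraries came from mice given angiotensin II or vehicle alone and from the brain hemisphere of all 4 treatments. The labels call the mice with angiotensin II plus hydralazine hypertensive and those with vehicle plus hydralazine controls. Age, blood pressure and whether each library is a separate mouse are not given in the labels used here, so the p-values below measure the spread between libraries. Genes entered the comparison if they reached 0.5 FPKM (fragments per kilobase of gene and per 1000000 mapped) in at least 6 of the 12 libraries, which left 14289 of 54532 genes.

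Angiotensin II is the effector peptide of the renin-angiotensin system. It acts mainly through the AT1 receptor to constrict vessels, retain salt and raise blood pressure. Hydralazine relaxes arteriolar smooth muscle directly, so the comparison asks what the peptide does to hippocampal transcripts when the control mice receive the same vasodilator. The hippocampus holds the granule neurons of the dentate gyrus and the pyramidal neurons of the CA fields, and it borders ventricles lined by ependymal cells, choroid plexus and white matter, whose cells can enter a dissection.

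The libraries of the 2 groups were not of equal quality. Reads in genes, in units of 1000000 (M), ranged from 15.3 to 19.2 M in the angiotensin II group and from 1.21 to 19.6 M in the vehicle group. Vehicle replicate 3 was the shallowest and listed 7805 genes above 0. Of the 6350 genes with at least 5 FPKM in every library that lists 16000 genes or more, it listed 19.1% at 0. Vehicle replicate 4 and angiotensin II replicate 5 had 16.7 and 15.3 M reads but listed only 12923 and 12915 genes, against 18914 to 22177 in the remaining libraries. These 3 libraries each list fewer than 16000 genes, and results are therefore given with 12 libraries and with the 9 others (5 with angiotensin II, 4 with vehicle). With each library thinned to 1000000 reads, vehicle replicate 3 listed 7776 genes, vehicle replicate 4 12390 and angiotensin II replicate 5 12405. The 9 others then listed 15743 to 16029. Genes with 1 to 5 reads at full depth numbered 267, 439 and 404 in these 3 libraries, against 1420 to 4754 in the 9. The cause was not tested. Among the 9, angiotensin II replicate 3 stood apart, with 6.40% of reads from mitochondrial genes against 8.17% to 9.93% in the other 5 angiotensin II libraries. No difference between the groups in depth, genes above 0, mitochondrial share or the mean level of choroid plexus genes passed the test (two-sided exact permutation tests, adjusted p = 0.589 for each with 12 libraries and 0.286 to 0.778 with 9). The smallest unadjusted p possible in these permutation tests is 0.00217 with 12 libraries and 0.00794 with 9. The 9 libraries were chosen by their genes above 0, so the test of that measure there cannot say whether the groups differed in it.

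**Figure D1:**
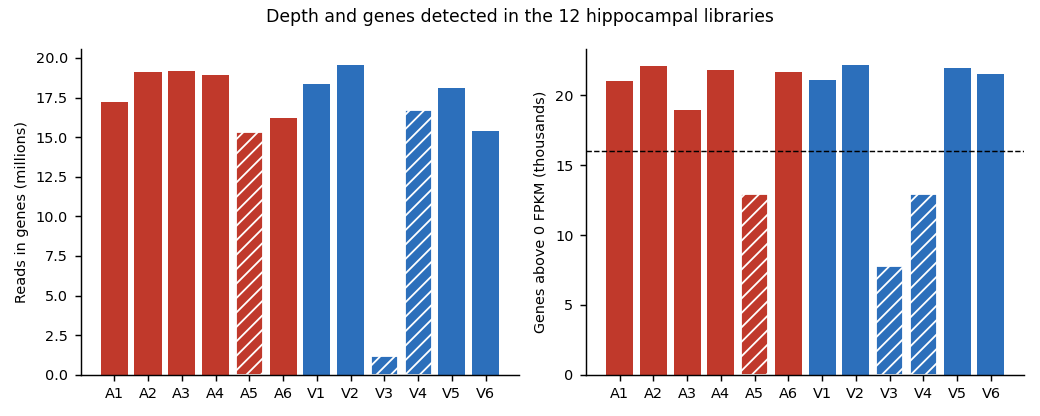
Reads in genes (left) and genes above 0 FPKM (right) in each library; A1 to A6 are angiotensin II plus hydralazine (red) and V1 to V6 vehicle plus hydralazine (blue). Hatched bars are the 3 libraries under 16000 genes (dashed line), and V3 has only 1.21 M reads.

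The tissue label held against its defining markers. In the 9 libraries the summed level of the dentate markers Prox1, Dsp and C1ql2 was 70.4 to 162 FPKM, against 8.02 to 11.9 FPKM in the hemisphere libraries of mice on hydralazine. The CA1 markers Wfs1, Fibcd1 and Spink8 summed to 158 to 215 FPKM against 35.6 to 42.5 FPKM. Striatal markers reached 3.75 FPKM at most and cerebellar markers 1.82 FPKM at most, with 1 of 3 cerebellar markers at 0 in all 9 libraries, against at least 62.3 and 94.1 FPKM in the hemisphere. Markers of adjoining regions were less clearly apart. Cortical markers summed to 9.2 to 14.5 FPKM against 16.4 to 22.1 FPKM, and reached 38.7 FPKM in a library with few genes. Thalamic markers summed to 5.7 to 9.05 FPKM against 20.1 to 29.5 FPKM. The 5 choroid plexus markers summed to 8.62 to 32.5 FPKM with angiotensin II and to 14.7 to 131 FPKM with vehicle, so a variable trace of this tissue was present.

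No gene passed the test in the 12 libraries (limma, Benjamini-Hochberg adjusted p under 0.05; 0.0% of 14289 genes). At an unadjusted p under 0.05 there were 285 genes, fewer than the 714 that this threshold allows with no effect, and the smallest adjusted p was 0.82. Of the 285, 218 were higher and 67 lower with angiotensin II (1.53% and 0.469% of genes tested). The median log2 difference of all genes was 0.16, and it was 0.01 without vehicle replicate 3. After quantile normalisation of the libraries it was -0.02, with 173 genes higher and 196 lower at the unadjusted threshold. With the 9 libraries again no gene passed (0.0% of 14156 genes; smallest adjusted p 0.656), 703 had an unadjusted p under 0.05 against 708 allowed, and the split was even, with 368 higher and 335 lower (2.6% and 2.37%). The median of all genes was then 0.01. limma with precision weights on reads recovered from the FPKM (voom) called 0 genes in either set, with 253 and 676 genes at an unadjusted p under 0.05. Verbs such as rose or fell are therefore not used below for single genes of the 2-group comparison, and values are given in their place.

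Cd9 was second by p in the 12 libraries and first in the 9. It encodes a tetraspanin of the cell surface that is abundant in myelinating glia (chromosome 6, 125460266 to 125494791, GRCm38). Cd9 measured 34.3, 36.8 and 38.2 FPKM (lowest, median, highest) with angiotensin II and 44.1, 47.5 and 75.2 FPKM with vehicle. All 6 angiotensin II libraries lay below all 6 vehicle libraries, and the highest vehicle value came from replicate 3, the shallow library. The log2 difference was -0.46 (SE 0.12, limma adjusted p = 0.82). It was -0.34 (SE 0.06, limma adjusted p = 0.656) with 9 libraries, also with no overlap. Such complete separation was found for 37 genes higher and 13 lower in the 12 libraries (0.259% and 0.091%), and for 172 higher and 105 lower in the 9 (1.22% and 0.742%).

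B2m, which encodes the light chain shared by all class I MHC molecules (chromosome 2, 122147686 to 122153083), also separated the groups. It measured 136, 176 and 192 FPKM with angiotensin II and 196, 224 and 282 FPKM with vehicle. The gap between the groups was small, from 192.0 FPKM in angiotensin II replicate 1 to 195.6 FPKM in vehicle replicate 3. The log2 difference was -0.41 (SE 0.11, limma adjusted p = 0.82) and -0.47 with 9 libraries (SE 0.12, adjusted p = 0.832).

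Uchl1, a neuronal ubiquitin hydrolase, had the smallest p of all genes with 12 libraries and lay the other way (chromosome 5, 66676091 to 66687234). It measured 609, 648 and 727 FPKM with angiotensin II and 495, 568 and 586 FPKM with vehicle, and the groups did not overlap. The log2 difference was 0.24 (SE 0.06, limma adjusted p = 0.82) and 0.19 with 9 libraries. Ppp1r1a, an inhibitor of protein phosphatase 1, measured 230 to 307 FPKM with angiotensin II and 155 to 240 FPKM with vehicle, so its groups overlapped. Ptma, the nuclear protein prothymosin alpha, measured 280 to 296 FPKM against 300.0 to 361 FPKM, a narrow but complete separation of -0.17 on the log2 scale (-0.12 with 9 libraries).

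Dnajc3, a co-chaperone of the endoplasmic reticulum, measured 8.11, 9.23 and 9.71 FPKM with angiotensin II and 10.4, 11.6 and 18.3 FPKM with vehicle. No library of one group reached into the other, and the highest vehicle values came from replicates 3 and 4, both with few genes. The log2 difference was -0.46 (SE 0.15, adjusted p = 0.82 by limma) and -0.28 (SE 0.07, adjusted p = 0.832) with 9 libraries. Pdia4, a protein disulfide isomerase of the same compartment, measured 15.3 to 16.6 FPKM against 15.7 to 24.5 FPKM in the 9 libraries, and its log2 difference was -0.30 there and -0.51 with 12. The remaining genes of smallest p in the 12 libraries were Mal (-0.41), Nhp2 (0.35), Sh3bgrl3 (0.40), Eps8l1 (0.99), Rprm (0.43), Flot1 (0.39), Cirbp (0.31) and Jpt1 (0.47), each as a log2 difference. All 8 kept their sign with 9 libraries, where the values ran from -0.40 for Mal to 0.79 for Eps8l1.

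**Figure D2:**
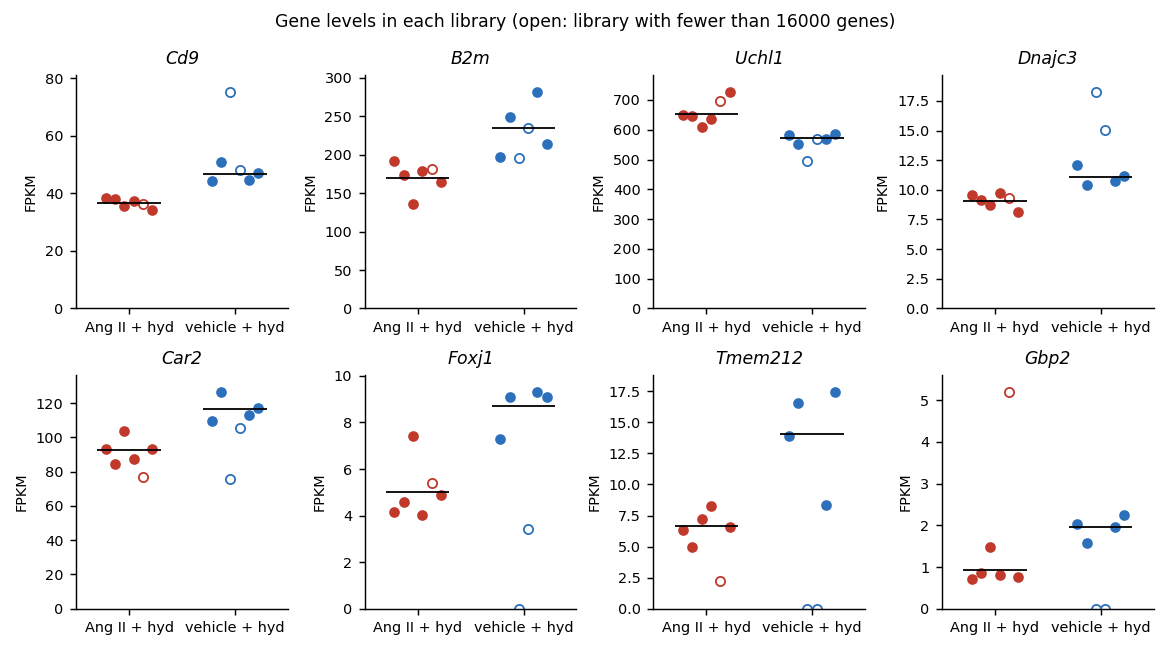
FPKM of 8 genes in each library, angiotensin II plus hydralazine in red and vehicle plus hydralazine in blue; the bar is the mean of the libraries drawn as filled points, and open points are the 3 libraries with fewer than 16000 genes. Cd9, B2m, Uchl1 and Dnajc3 are separated in all 12 libraries, Car2, Tmem212 and Gbp2 are separated among the filled points only, and Foxj1 nearly so.

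Beside Cd9, other genes led the 9 libraries. Foxj1, the transcription factor that drives the making of motile cilia and marks ependymal cells (chromosome 11, 116330704 to 116335399), measured 4.03, 4.60 and 7.43 FPKM in the 5 angiotensin II libraries and 7.27, 9.09 and 9.30 FPKM in the 4 vehicle libraries. Only angiotensin II replicate 3, at 7.43 FPKM, reached the lowest vehicle value. The log2 difference was -0.76 (SE 0.15, limma adjusted p = 0.683). With all 12 libraries it was 0.17, with vehicle replicate 3 listing the gene at 0 and replicate 4 at 3.41 FPKM. Tmem212, another gene of ciliated ependyma, measured 4.94 to 8.26 FPKM against 8.35 to 17.4 FPKM (-0.99, SE 0.20, adjusted p = 0.71 by limma), without overlap, but it is listed at 0 in vehicle replicates 3 and 4 and its 12-library difference was 0.38. Tekt1, a tektin of the ciliary axoneme, measured 0.853 to 2.29 FPKM against 2.86 to 3.76 FPKM (-0.84).

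Gbp2, an interferon-induced GTPase of host defence (chromosome 3, 142620602 to 142638008), had levels near 1 FPKM with angiotensin II. The 5 libraries gave 0.717, 0.805 and 1.48 FPKM and the 4 vehicle libraries 1.57, 2.00 and 2.25 FPKM, with no overlap. The log2 difference was -0.80 (SE 0.15, limma adjusted p = 0.683). The 3 libraries with few genes went the other way, 5.19 FPKM in angiotensin II replicate 5 and 0 in vehicle replicates 3 and 4, so the 12-library difference was 0.30.

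Car2, carbonic anhydrase 2 of oligodendrocytes and choroid plexus, measured 84.3, 93.3 and 104 FPKM in the angiotensin II libraries and 110, 115 and 126 FPKM in the vehicle libraries. The groups did not overlap, and the difference was -0.33 (SE 0.07, limma adjusted p = 0.803). With 12 libraries it was -0.25, and vehicle replicate 3 measured 75.7 FPKM. The other genes of smallest p in the 9 libraries were Lhb (-0.88), Cdk18 (-0.45), Nuf2 (-0.44), Fnbp1 (-0.29), Ska2 (-0.27), Nagk (0.26), Chrac1 (0.30), Cgref1 (0.36) and the myelin gene Ermn (-0.49), all as log2 differences. Of these 15 leading genes, 6 (Foxj1, Tmem212, Gbp2, Ermn, Nuf2 and Ska2) had the opposite sign with 12 libraries. In vehicle replicate 3 all 6 are listed at 0.

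When limma weighted each library by its agreement with its group, the shallow vehicle replicate 3 had a weight of 0.0152, vehicle replicate 4 of 0.0962 and angiotensin II replicate 5 of 0.10, against 0.621 for angiotensin II replicate 3 and 1.62 to 5.46 for the other 8. In this alternative fit 5 genes passed with 12 libraries by limma (0.035%), and all were lower with angiotensin II. They were Foxj1 (-0.88, SE 0.11, adjusted p = 0.0125), Car2 (-0.41, SE 0.05, adjusted p = 0.0125), Cd9 (-0.35, SE 0.05, adjusted p = 0.0183), Efhd1 (-0.59, SE 0.09, adjusted p = 0.0318) and 2410004P03Rik (-0.89, SE 0.12, adjusted p = 0.0159). Efhd1, a mitochondrial calcium-binding protein, and 2410004P03Rik were named after their values were seen. With 9 weighted libraries Foxj1 alone passed (0.00706%; -0.90, SE 0.10, adjusted p = 0.0298). Without angiotensin II replicate 3, 8 libraries remained, and Foxj1 (-0.90, adjusted p = 0.0385) and Gbp2 (-0.92, adjusted p = 0.0474) passed (0.0143%).

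Genes of myelin and its cells had lower values with angiotensin II in the 9 libraries. All 19 genes of the oligodendrocyte list were tested, and in the 9 libraries 19 of 19 had a lower mean with angiotensin II, where 47.1% of all genes tested did. Their median log2 difference was -0.32, against 0.01 for all genes. None of the 19 passed the test, and 8 had an unadjusted p under 0.05, where 2.37% of all genes were lower at that threshold. In bulk tissue, fewer cells of a type and less RNA per cell cannot be told apart.

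Mbp, myelin basic protein, measured 336, 423 and 509 FPKM with angiotensin II and 439, 531 and 562 FPKM with vehicle (-0.34, SE 0.12). Mal, a proteolipid of compact myelin, measured 91.5, 105 and 166 FPKM against 133, 150 and 164 FPKM. In both genes the highest angiotensin II value was replicate 3. For Mbp it lay among the vehicle libraries, and for Mal it lay above the highest of these vehicle values. Mbp was named here after its values were seen; by the rule for naming, Ermn, Myrf (-0.39), which is the master regulator of myelination, Ugt8a (-0.47), which makes the myelin lipid galactocerebroside, and Olig2 (-0.35) had the smallest p.

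The mean level of the list, as log2(FPKM + 0.5), ran from 5.19 to 5.94 in the 5 angiotensin II libraries and from 5.54 to 5.93 in the 4 vehicle libraries, so the groups overlapped through replicate 3. Without that library the list median was -0.44, again with 19 of 19 lower. With all 12 libraries it was -0.19, with 15 of 19 lower against 31.1% of all genes. Over the fits that left out each of the 9 libraries in turn it stayed between -0.44 and -0.25. When the mean level of the choroid plexus genes was added as a covariate, in a fit chosen after seeing the data, it was -0.14 with 15 of 19 lower.

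Of the 12 genes in the ependymal list 9 could be tested. In the 9 libraries 9 of 9 tested genes were lower with angiotensin II, at a median of -0.43, and 5 had an unadjusted p under 0.05 (2.37% of all genes). Beside Foxj1 and Tmem212 these were Ccdc153 (-0.75), the dynein light chain gene Dynlrb2 (-0.86) and the lipid transfer gene Pltp (-0.22), the last named after its values were seen. Leaving out each library in turn moved the median between -0.72 (without vehicle replicate 5) and -0.34. With 12 libraries 4 of 10 were lower and the median was 0.09, and Tmem212 and Dynlrb2 are listed at 0 in vehicle replicates 3 and 4. After quantile normalisation of the 12 libraries 9 of 10 were lower (median -0.21). Of the 16 choroid plexus genes only 5 reached the level needed for a test, with 5 of 5 lower in the 9 libraries (median -0.43) and 4 of 5 in the 12 (-0.40).

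Ttr, the transthyretin gene that choroid plexus expresses above all others, measured 6.07, 13.8 and 29.2 FPKM in the 5 angiotensin II libraries and 11.7, 36.7 and 127 FPKM in the 4 vehicle libraries (-1.63, SE 0.66, limma adjusted p = 0.893). Vehicle replicate 1 alone reached 127 FPKM, and the groups overlapped. The choroid plexus list mean was 0.18 ± 0.22 (SD, n = 5) with angiotensin II and 0.47 ± 0.16 (SD, n = 4) with vehicle (exact permutation p = 0.0714, adjusted p = 0.286). Its part in the ependymal and myelin values was not tested apart from the covariate fit, in which 6 of 9 ependymal genes were lower at a median of -0.25.

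**Figure D3:**
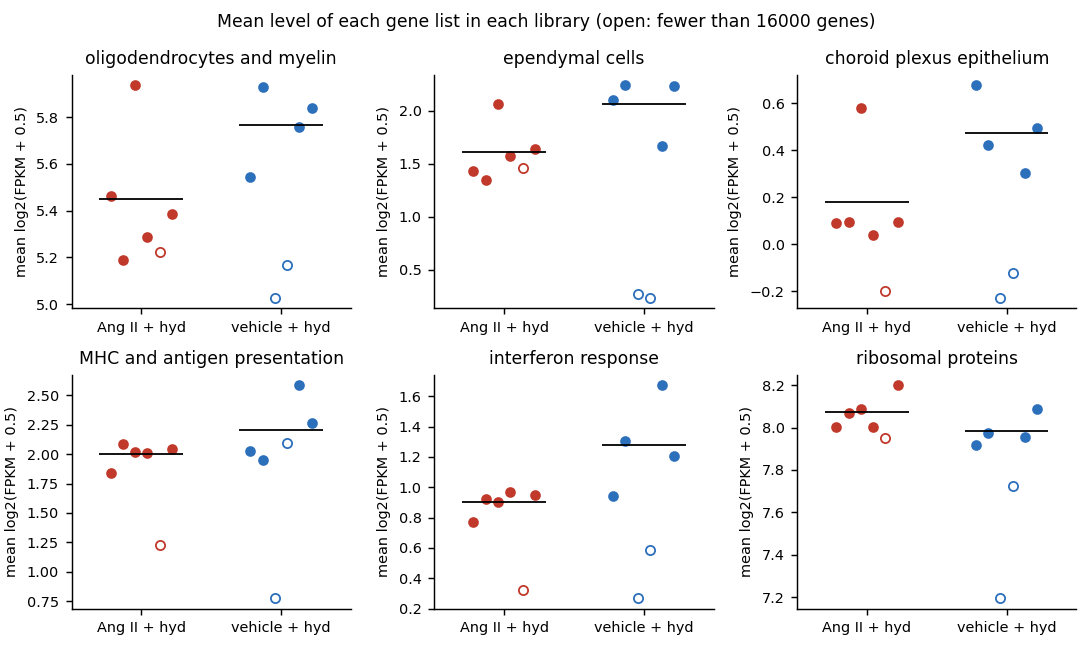
Mean log2(FPKM + 0.5) of 6 gene lists in each library, angiotensin II plus hydralazine in red and vehicle plus hydralazine in blue; bars are means of the filled points and open points are the 3 libraries with few genes. Angiotensin II replicate 3 is the highest red point for myelin (5.94), ependymal and choroid plexus genes. It lies among the vehicle libraries for ependymal and choroid plexus genes and above the highest vehicle library (5.93) for myelin.

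Interferons raise the transcription of genes that carry response elements in their promoters, and class I MHC genes are among those targets. Promoter stretches are shown for B2m, Gbp2, Bst2 and Ifit3. Each has a small p in these lists or the region contrast below and holds a match to the element searched. Iigp1, Rtp4, H2-K1 and H2-D1, also at an unadjusted p under 0.05 with 9 libraries, have no match or no promoter entry. Ctss, at the same threshold, holds a match too, but its stretch is not shown. Sequences are from RefSeq (GRCm38.p6), written 5′ to 3′ on the strand of the gene, with matches to the interferon-stimulated response element in capitals. The element was searched as GAAA, any 2 bases and GAAA, on both strands with overlaps allowed. B2m lies on the plus strand at chr2:122147437-122147685, Gbp2 on the plus strand at chr3:142620594-142620623, Bst2 on the minus strand at chr8:71537473-71537722 and Ifit3 on the plus strand at chr19:34583279-34583528.
B2m: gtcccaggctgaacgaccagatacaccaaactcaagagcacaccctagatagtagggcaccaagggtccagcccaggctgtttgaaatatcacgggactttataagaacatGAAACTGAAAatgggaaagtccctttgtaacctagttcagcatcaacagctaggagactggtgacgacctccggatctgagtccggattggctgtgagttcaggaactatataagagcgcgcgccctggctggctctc
Gbp2: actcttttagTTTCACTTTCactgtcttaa
Bst2: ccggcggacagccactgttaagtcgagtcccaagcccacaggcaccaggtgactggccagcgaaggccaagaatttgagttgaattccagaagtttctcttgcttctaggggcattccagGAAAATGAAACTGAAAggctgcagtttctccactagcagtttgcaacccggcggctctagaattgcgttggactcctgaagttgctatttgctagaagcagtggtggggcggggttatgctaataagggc
Ifit3: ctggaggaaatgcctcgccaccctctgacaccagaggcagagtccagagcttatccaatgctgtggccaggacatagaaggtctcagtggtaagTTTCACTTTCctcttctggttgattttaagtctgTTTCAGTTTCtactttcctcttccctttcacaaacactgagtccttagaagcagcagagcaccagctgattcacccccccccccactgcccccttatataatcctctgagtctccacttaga
The B2m match begins 139 bases before the RefSeq start and the Gbp2 match 59 bases before it. For Gbp2 only 30 bases are shown, since the match lies inside the gene model of the deposited table. In the 250 bases before the start, 11 of the 18 interferon list genes with a promoter entry (of 24 listed) and 3 of 14 MHC list genes (of 19) hold such a match, against 3.46% of 27025 genes. The 11 oligodendrocyte and 9 ependymal genes with an entry hold none. A match is a description of the letters and not evidence of binding.

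In the 9 libraries 14 of 16 tested interferon genes were lower with angiotensin II (47.1% of all genes), at a median log2 difference of -0.29, and 5 had an unadjusted p under 0.05 (2.37%). Beside Gbp2 these were Bst2, the tethering factor that holds budding virus at the cell surface (-0.62, SE 0.20), the GTPase Iigp1 (-0.40), Ifit3 (-0.81, SE 0.32) and Rtp4 (-0.52). Rtp4 and Isg15 were named after their values were seen. Isg15, a ubiquitin-like modifier, measured 1.97 to 4.20 FPKM with angiotensin II and 2.57 to 9.37 FPKM with vehicle (-0.67, SE 0.33). The levels are low, and Ifit and Gbp genes have near-identical relatives whose reads the authors' counting could have split.

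The interferon list mean was 0.77 to 0.97 in the 5 angiotensin II libraries and 0.94 to 1.67 in the 4 vehicle libraries, and the 1.67 was vehicle replicate 5. Without that library the list median was -0.16, over 1.5 times closer to 0, and without vehicle replicate 1 it was -0.44. With all 12 libraries 9 of 17 genes were lower (31.1% of all genes) and the median was -0.17, while quantile normalisation of these libraries gave 15 of 17 lower and -0.30.

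For antigen presentation, 16 of 17 tested genes were lower with angiotensin II in the 9 libraries (47.1% of all genes), at a median of -0.22. Of the genes tested, 4 were lower at an unadjusted p under 0.05 (2.37% of all genes). These were B2m, the class I heavy chains H2-K1 (11.9 to 13.9 FPKM against 14.5 to 24.3 FPKM, no overlap) and H2-D1 (15.8 to 19.3 FPKM against 16.6 to 40.4 FPKM), and Ctss, the protease cathepsin S (-0.22). H2-K1 and H2-D1 are near-identical in sequence to other class I genes and are uncertain. Without vehicle replicate 5 the list median was -0.12, with 9 of 16 lower, and without vehicle replicate 2 it was -0.37. With 12 libraries 9 of 17 were lower (31.1% of all genes) and the median was -0.23. Microglial genes had a median of -0.02 with 13 of 21 lower.

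Of 22 heat shock and unfolded protein response genes, 19 were lower in the 9 libraries (47.1% of all genes), with a median of -0.10. At an unadjusted p under 0.05, 4 were lower (2.37% of all genes). The median was -0.16 without vehicle replicate 2 and -0.06 without vehicle replicate 6. Hspa1b, an inducible Hsp70 with a near-identical copy in Hspa1a, measured 4.31 to 5.31 FPKM against 5.25 to 7.17 FPKM (-0.37, SE 0.09). Hspa5, the chaperone BiP of the endoplasmic reticulum, measured 60.7 to 76.2 FPKM against 62.6 to 101 FPKM (-0.28), and Xbp1, a transcription factor of the unfolded protein response, had a difference of -0.25. With 12 libraries 7 of 22 were lower, near the 31.1% of all genes, and the median was 0.02, beside 0.16 for all genes. Quantile normalisation turned the list median to -0.03 with 15 of 22 lower. Cytokine and chemokine genes gave 11 of 12 lower at a median of -0.12, with Csf1, a growth factor of microglia, at -0.20 and Il33 at -0.26; Il1b, Il6, Tnf and Ccl2 were too low to test.

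In both sets of libraries 39 of 41 ribosomal protein genes had a higher mean with angiotensin II, at medians of 0.09 (9 libraries, 52.9% of all genes higher) and 0.20 (12 libraries, 68.9% of all genes higher, median of all genes 0.16). Rpl6 measured 178 to 188 FPKM against 163 to 175 FPKM with 9 libraries, a difference of 0.13 (SE 0.05). Nuclear genes of the respiratory chain were higher in 25 of 34 (median 0.05; 0.10 without angiotensin II replicate 3, 0.03 without replicate 6 and -0.02 with the choroid plexus covariate), whereas 11 of 13 genes of the mitochondrial genome were lower (median -0.16, and -0.04 without angiotensin II replicate 3, the library with the low mitochondrial share). The vesicle genes Cplx2 (0.23, SE 0.08) and Syn2 (0.13, SE 0.06) had an unadjusted p under 0.05. They were 2 of 18 presynaptic genes, where 2.6% of all genes were higher at that threshold. Of the 18, 13 were higher (52.9% of all genes), at a median of 0.03.

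Among neuronal genes, CA1 genes were higher in 9 of 11 (median 0.09, with Spink8 at 0.14), CA2 and CA3 genes in 8 of 14 (0.01) and dentate granule genes in 6 of 15 (-0.02). Of 26 immediate early genes, which neurons switch on within minutes of activity, 17 were lower at a median of -0.06, and the median was 0.06 with library weights and 0.01 without angiotensin II replicate 6. Arc measured 27.5 to 79.5 FPKM in the 5 angiotensin II libraries and 35.7 to 49.9 FPKM in the 4 vehicle libraries (0.10, SE 0.25). Fos measured 1.04 to 11.7 FPKM against 4.10 to 7.68 FPKM (-0.21, SE 0.51), so its range within the angiotensin II group was wider than the gap between the groups. AMPA and NMDA receptor subunits (12 of 23 higher, 0.01) and GABA-A receptor subunits (8 of 14 higher, 0.00) had medians near that of all genes.

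No gene of the renin-angiotensin or vessel wall lists passed the test. Of 16 renin-angiotensin genes 8 were tested, and Agtr1a and Agtr2, the genes of the AT1a and AT2 receptors, were too low to test. Agt, the precursor angiotensinogen, measured 9.89 to 14.8 FPKM against 8.94 to 12.9 FPKM with 9 libraries (0.18, SE 0.13, limma adjusted p = 0.893). The differences of Ace, the converting enzyme (-0.16), and of Mas1, the receptor of angiotensin-(1-7) (0.07), did not pass. Endothelial genes had a median of -0.02 over 24 genes, mural cell genes -0.01 over 15, hypoxia genes 0.00 over 20 and elastic fibre genes 0.01 over 12. Cldn5 of the blood-brain barrier (0.10, SE 0.15), Podxl (0.23, SE 0.12), Eln (0.08, SE 0.15), Edn1 (-0.17, SE 0.30), Hif1a (0.04, SE 0.09) and Vegfa (-0.14, SE 0.17) did not pass.

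Gfap, the astrocyte filament that rises in reactive gliosis, measured 103 to 152 FPKM with angiotensin II and 112 to 132 FPKM with vehicle in the 9 libraries (-0.08, SE 0.11), and Aif1, a microglial marker, 7.04 to 10.2 FPKM against 6.45 to 10.1 FPKM (0.07, SE 0.14). Cd68 was at -0.21 (SE 0.14) and Bdnf at -0.02 (SE 0.10). With 12 libraries Aif1 is listed at 0 in vehicle replicates 3 and 4 and its difference was 1.52 (SE 0.79, limma adjusted p = 0.82), so that value rests on those libraries.

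**Figure D4:**
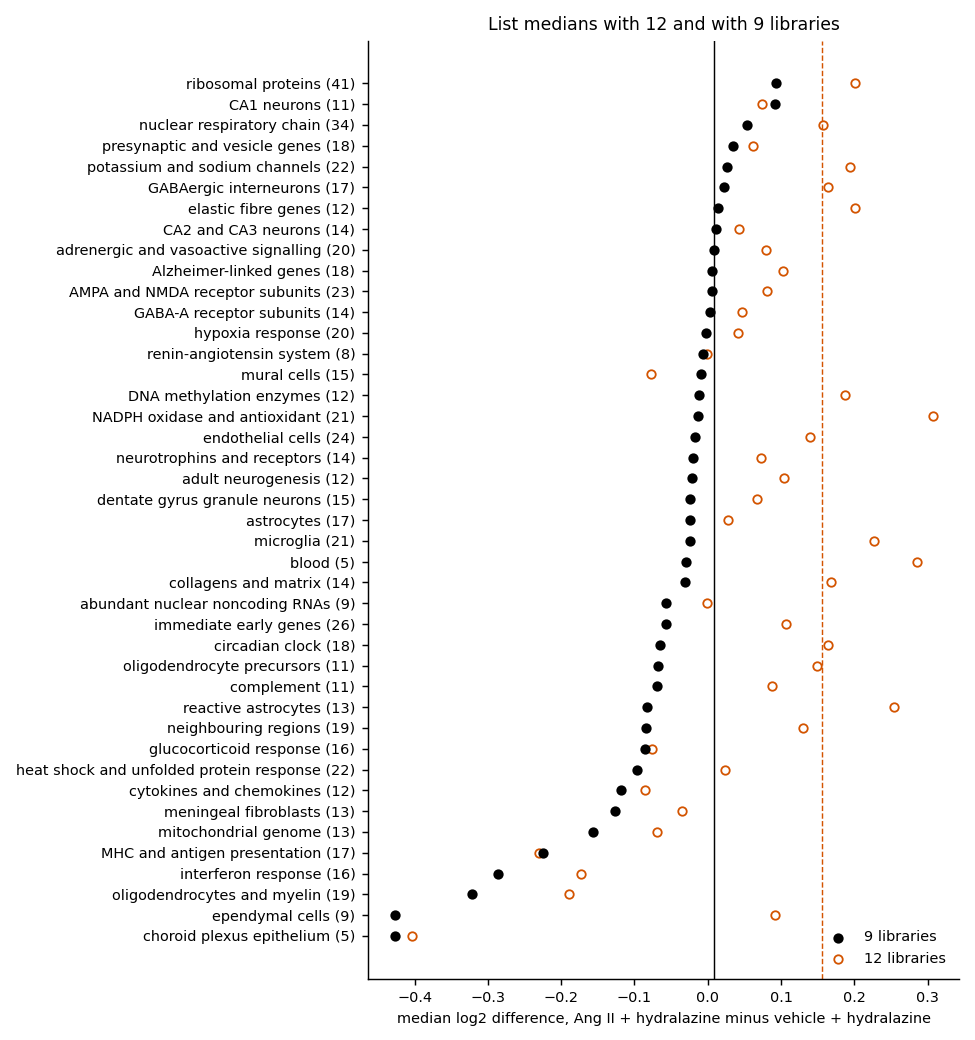
Median log2 difference (angiotensin II plus hydralazine minus vehicle plus hydralazine) of each gene list with at least 5 genes tested, with 9 libraries (filled) and 12 libraries (open); lines mark the medians of all genes, 0.01 (solid) and 0.16 (dashed), and the number of genes tested with 9 libraries is in brackets. Most lists lie near the lines, and choroid plexus, ependymal, myelin, interferon and MHC genes lie lowest with 9 libraries.

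Whether the response differed from that without hydralazine was tested as an interaction over the 24 hippocampal libraries. No gene of 15267 passed (limma, 0.0%), with 366 at an unadjusted p under 0.05, and none passed in any of the alternative fits run for this contrast. The 5 genes with the smallest p were U2af2, a splicing factor (-0.66, SE 0.21), Jpt1 (0.64, SE 0.20), mt-Nd4l of mitochondrial complex I (-1.58, SE 0.51), the chemokine Ccl28 (1.25, SE 0.42) and Ap3b1 of the adaptor complex AP-3 (-0.69, SE 0.23), each as the log2 effect under hydralazine minus that without it. Without the 6 hippocampal libraries that list fewer than 16000 genes, these were -0.39, 0.23, -1.85, 0.40 and -0.30.

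Without hydralazine, angiotensin II against vehicle gave 0 genes (limma, 538 at an unadjusted p under 0.05 of 14105 tested in the 9 libraries of those groups that list at least 16000 genes). The myelin list was lower in 18 of 19 genes there (median -0.19) and the ependymal list in 8 of 9 (-0.51), beside -0.32 and -0.43 under hydralazine. Of the genes also tested under hydralazine, 6347 of 13926 were lower there. Without vehicle replicate 5 of those groups, whose ependymal and myelin list means were the highest of its group, these medians were -0.10 and -0.20. Choroid plexus genes had a median of 0.22 without hydralazine, with 0 of 4 lower, beside -0.43 under it. That 0.22 was -0.18 without angiotensin II replicate 4. Interferon genes had a median of -0.02 with 7 of 14 lower, beside -0.29 under hydralazine. Ribosomal protein genes had a median of -0.25 there, which rested on angiotensin II replicate 6. That library had a ribosomal list mean of 6.73 against 7.82 to 8.11 in the other 4 angiotensin II libraries, and 5.74% of its reads came from mitochondrial genes. Without it the median was 0.00, beside 0.09 under hydralazine. The ribosomal median of the interaction over 18 libraries, 0.36 against -0.01 for all genes, was 0.09 without that library, and no member passed.

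The same contrast in the hemisphere, over 12 libraries, gave 0 genes by limma and 821 at an unadjusted p under 0.05 of 15826. The myelin list had a median of -0.01 there, ependymal genes -0.03, interferon genes 0.05, MHC genes 0.08 and ribosomal genes 0.11. The difference between regions, tested over 24 libraries, reached an adjusted p under 0.05 for no gene of 16601 (limma, 0.0%; 335 at an unadjusted p under 0.05, smallest adjusted p 0.232). Whether a hippocampus and a hemisphere came from one mouse is not given in the labels used here.

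The 5 genes with the smallest p in that contrast were all lower in the hippocampus relative to the hemisphere. They were Ptma (-0.27, SE 0.08), Ifitm3 (-0.57, SE 0.18), which blocks the entry of viruses into cells, Dbi (-0.31, SE 0.10), Ifit3 (-1.75, SE 0.57) and Cd9 (-0.42, SE 0.14). These estimates include the 3 hippocampal libraries with few genes. All 5 kept their sign without those libraries, but their size there is not given. In the hemisphere Ifitm3 had a difference of 0.39 (SE 0.09) and Cd9 of -0.05 (SE 0.07). With library weights 12 genes passed, all lower, among them (chosen after their values were seen) Gbp2 (-0.96, SE 0.17, adjusted p = 0.023), Usp18 (-1.20, SE 0.20, adjusted p = 0.0151), Car2 (-0.42, SE 0.06, adjusted p = 0.00713), Foxj1 (-0.90, SE 0.17, adjusted p = 0.0372) and Mbp (-0.56, SE 0.11, adjusted p = 0.0468). Over 21 libraries without the 3 with few genes, no gene passed (716 at an unadjusted p under 0.05), and 19 of 19 myelin, 10 of 10 ependymal and 15 of 17 interferon genes had a lower estimate in the hippocampus, as did 7128 of 14275 genes of the table tested with 12 libraries.

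**Figure D5:**
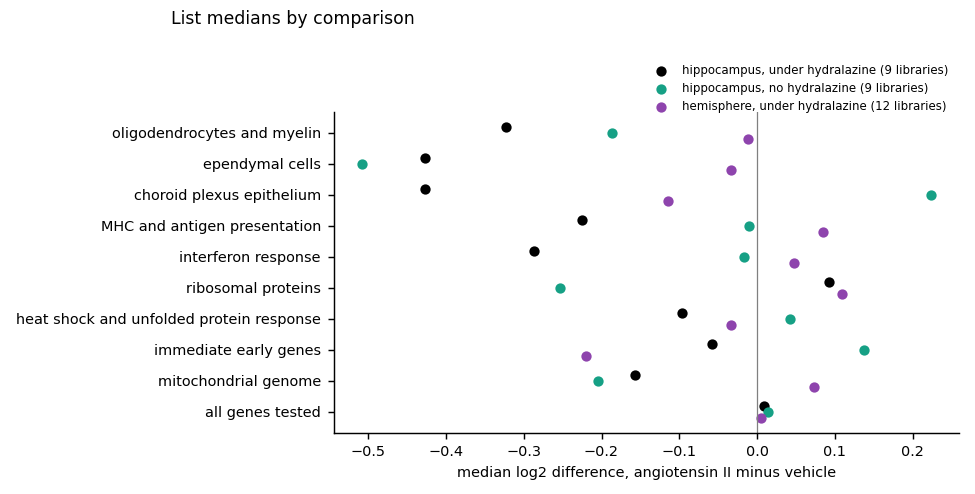
Median log2 difference of 10 gene sets for angiotensin II minus vehicle in the hippocampus under hydralazine (9 libraries, black), in the hippocampus without hydralazine (9 libraries, green) and in the hemisphere under hydralazine (12 libraries, purple). Myelin genes lie at -0.32, -0.19 and -0.01, and ribosomal genes at 0.09, -0.25 and 0.11, where the -0.25 is 0.00 without angiotensin II replicate 6 and the -0.19 is -0.10 without vehicle replicate 5 of the groups without hydralazine.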

How the data were processed

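RNA-seq of 12 hippocampal libraries was analysed, with the other 36 libraries used for contrasts only. The deposited table holds FPKM per gene, made by the authors; DESeq 1.10.1 and the builds GRCm38 and mm10 are named in the submitters' processing notes, while an aligner or counter is not given in the sources used here. Reads were recovered from FPKM and gene length, to within 0.1 of a whole read. Values were tested as log2(FPKM + 0.5), which understates changes of low genes, with limma 3.58.1 in R 4.3.3 (trend and robust prior, two-sided, Benjamini-Hochberg adjusted p under 0.05), after a filter of 0.5 FPKM in at least 6 libraries. Library quality was compared by exact permutation. The code was tested on simulated data. Python 3.11.15, pandas 2.3.3 and matplotlib 3.10.9 were used for summaries and figures.

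The members, the threshold of 16000 genes and the 44 gene lists (813 entries) were chosen with earlier results of these data known. Named genes were the 15 protein-coding genes of smallest p with a mean of at least 1 FPKM in each set of libraries, 5 in each interaction contrast, up to 4 per list, and a fixed set of vascular, glial and activity genes; others are said to be chosen after their values were seen. The 30 replicate pairs were compared by chi-square on recovered reads, and all differed by more than sampling noise (at least 5.59 per gene). Same-numbered libraries did not deviate together (r from -0.11 to 0.11 with 12 libraries), so replicate numbers were not taken as pairs. Alternatives covered the pseudocount, filter, scaling, weights, covariates, the replicate block and leaving out each library. For the 9 libraries, precision weights, the choroid plexus covariate and quantile normalisation were chosen after seeing the data, as was leaving out each library in turn for every list in the other contrasts.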

Additional observations from a re-analysis of the deposited data

Results flagged for a closer look

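In each group of 6 libraries, a value was singled out when its gap to the nearest other library, divided by the group's whole range, exceeded Dixon's critical value. Here 15 values in 64 groups were singled out. Of these, 7 were in vehicle replicate 3, 7 in angiotensin II replicate 5 and 1 in angiotensin II replicate 3. For groups not picked by their values, chance singles out about 1 in 20. The genes given below were picked for a small p, some in the fit without vehicle replicate 3 and angiotensin II replicate 5. Such picking favours genes whose values lie close together in the libraries fitted. The count therefore cannot be compared with that rate. Vehicle replicate 3 had 1.21 M reads in genes, against 15.4 to 19.6 M in the other vehicle libraries. In the same library Cd9 measured 75.2 FPKM (others 44.1 to 50.9), Uchl1 495 FPKM (552 to 586), Cdk18 10.2 FPKM (2.75 to 4.05) and Nagk 19.6 FPKM (8.38 to 10.9), and Cgref1 and Chrac1 were listed at 0. Angiotensin II replicate 5 listed 12915 genes above 0, where the other angiotensin II libraries had 18914 to 22073. There Cirbp measured 52.4 FPKM (others 36.6 to 41.9), Chrac1 17.1 FPKM (8.48 to 10.8), Nuf2 3.04 FPKM (0.778 to 1.15), Ska2 7.41 FPKM (3.54 to 3.93) and Gbp2 5.19 FPKM (0.717 to 1.48), and Cgref1 was listed at 0. The remaining value was Mal in angiotensin II replicate 3, at 166.3 FPKM against 91.5 to 118 FPKM in the other 5 libraries.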

How the results depend on the processing

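The count of 0 genes with an adjusted p under 0.05 changed in few alternatives. Library weights gave 5 genes with 12 libraries, 1 with 9 and 12 in the contrast between regions, and turned the log2 difference of Foxj1 with 12 libraries from 0.17 to -0.88. The choroid plexus covariate gave 15 genes with 9 libraries (4 higher, 11 lower, B2m among them at -0.75) and 0 with 12. With it, genes at an unadjusted p under 0.05 went from 285 to 2597 with 12 libraries (2178 higher, 419 lower). With 9 libraries they went from 703 to 2596 (1295 higher, 1301 lower). Leaving out each library in turn gave 0 to 2 genes with 9 libraries (2 without angiotensin II replicate 3), 0 to 1 in the contrast between regions (1 without hemisphere angiotensin II plus hydralazine replicate 2) and 0 with 12 libraries; the cause was not tested. With the replicate block 0 genes passed in every contrast. The genes at an unadjusted p under 0.05 went from 285 to 355 with 12 libraries and from 703 to 1898 with 9. Among the 9 libraries only replicate numbers 1, 2 and 6 occur in both groups, so that fit rests on those pairs. Of 1371 alternative values of 49 results with 12 libraries, 1290 kept their sign. With 9 libraries 3819 of 3897 did, as did all 159 and 160 in the 2 interaction contrasts. Many of these genes were picked for a small p in the same fits. The alternatives reused the same libraries, so kept signs are not separate evidence. Depth limits what vehicle replicate 3 can show, where 1 read in a gene of 1 kb is 0.722 FPKM, against 0.0525 to 0.0691 FPKM in the other libraries. That library also listed fewer genes at an equal 1000000 reads, 7776 against 15743 to 16029 in the 9 libraries.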

Other observations

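Several lists without an account above had low medians in the 9 libraries that depended on 1 library. Of all genes tested there, 47.1% were lower. Meningeal fibroblast genes were lower with angiotensin II in 11 of 13 (median log2 difference -0.13), and the median ran from -0.32 without vehicle replicate 2, with -0.31 without angiotensin II replicate 3, to 0.01 without angiotensin II replicate 6. Complement genes were lower in 8 of 11 (-0.07, and 0.01 without vehicle replicate 6) and circadian clock genes in 12 of 18 (-0.07, and -0.01 without angiotensin II replicate 3). Oligodendrocyte precursor genes were lower in 9 of 11, at a median of -0.07 that stayed between -0.10 and -0.05 with each library left out. No gene of these lists passed the test. With 12 libraries the NADPH oxidase and antioxidant list had a median of 0.31 with 18 of 21 higher, beside 0.16 for all genes, and with 9 libraries -0.01 with 10 of 21 higher.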
